A study of Homo sapiens with 6 samples.

Results

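Secreted and mucosal defence proteins are made by epithelia that face microbes and by neutrophils, and several of them are also released by inflamed liver cells. They act by withholding iron, blocking proteases, binding calcium and zinc, or carrying antibody across the cell. Interleukin-1, interleukin-6 and interleukin-22 signaling through NF-kB, C/EBP factors and STAT3 is a textbook route to their induction in epithelia. The genes described here are LTF, LCN2, OLFM4, SLPI, S100A8, S100A9, S100P and PIGR, taken by gene symbol, 8 of the 58735 genes in the count table. They were chosen by role with their fold changes between the labels already in view. All 8 passed the filter on low counts.

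The libraries came from HepaRG, a single human line of liver progenitors able to form both hepatocyte-like and biliary-like cells. After differentiation in 1.8% DMSO the cells were given siRNA for 48 h, then fatty acids for 24 h, palmitic acid at 400 µM together with oleic acid at 800 µM. The siRNAs were aimed at PTPRD, a receptor tyrosine phosphatase, or at STAT3, and both sets of libraries share the differentiation and the fatty acids. The 3 libraries labelled PTPF were set against the 3 labelled STATF. The labels do not spell out these names. The count table holds these 6 libraries only, so neither label can be set against a control siRNA.

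Total counts were 33225627 to 36785080 in PTPF-labelled and 36443380 to 40796767 in STATF-labelled libraries. The targets of the siRNAs were checked first. STAT3 averaged 443 ± 12.2 CPM (counts scaled to library size with TMM factors) in PTPF-labelled and 119.5 ± 10.6 CPM in STATF-labelled libraries (SD, n = 3 each). On the log2 scale the difference was 1.89, with an SE of 0.063 and an adjusted p of 2.47e-18 in edgeR. PTPRD averaged 11.5 ± 1.36 CPM in PTPF-labelled and 11.5 ± 0.602 CPM in STATF-labelled libraries (SD, n = 3 each), with an edgeR adjusted p of 0.999. Since PTPRD did not separate the labels, directions are stated between PTPF-labelled and STATF-labelled libraries, not between siRNAs. Hepatocyte genes were abundant, with albumin (ALB) at 11995 ± 797 CPM in PTPF-labelled and 14853 ± 549 CPM in STATF-labelled libraries (SD, n = 3 each).

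Of the 8 genes, 6 were higher in every PTPF-labelled library than in any STATF-labelled one, PIGR was lower in all of them, and S100P overlapped. Over all 17844 genes tested, the labels did not overlap in 35.7%, with PTPF higher in 17.3% and lower in 18.4%. The genes were chosen with this comparison known, so these counts and the fold changes of the 8 genes are a description, with no test. Log2 fold changes ran from 2.48 for LTF to -0.58 for PIGR, with a median of 0.81 beside 0.002 over all genes tested. In bulk RNA, more cells of one kind and more RNA per cell cannot be told apart.

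**Figure D1:**
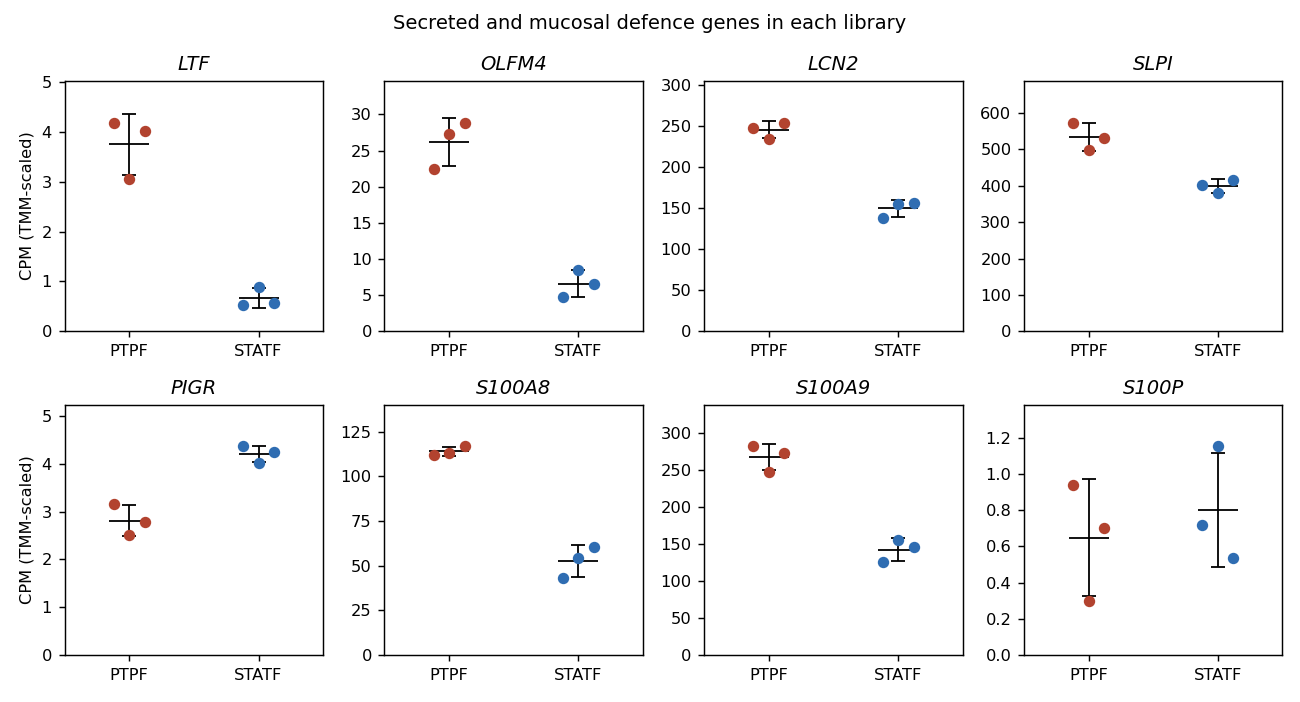
CPM of the 8 genes in each library, scaled by TMM, with PTPF-labelled libraries on the left of each panel and STATF-labelled on the right. Points are libraries, the horizontal mark is the mean and the bars are 1 SD (n = 3). The groups are apart in all panels but that of S100P, and PIGR is the panel with the lower PTPF values.

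LTF encodes lactotransferrin, the iron-binding protein of milk, mucosal fluids and neutrophil granules. Its level was 4.18, 3.05 and 4.01 CPM in the PTPF-labelled libraries, against 0.533, 0.888 and 0.561 CPM in the STATF-labelled ones. All PTPF values stood above all STATF values, and the lowest PTPF value was 3.44 times the highest STATF value. Means were 3.75 ± 0.611 CPM in PTPF-labelled and 0.66 ± 0.197 CPM in STATF-labelled libraries (SD, n = 3 each), a log2 fold change of 2.48 (SE 0.224), or 5.59-fold. These levels rest on 112 to 138 counts in PTPF-labelled and 20 to 37 counts in STATF-labelled libraries. Counting alone would give a coefficient of variation of 19.6% among the STATF-labelled libraries, where 29.9% was seen. LTF ranked 5 of 17844 genes tested by its log2 fold change, although it was among the rarer transcripts: only 21.5% of genes tested had a lower level per kilobase of gene length.

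LTF lies on chromosome 3 from 46435645 to 46485234 of GRCh38, on the minus strand, and RefSeq gives 3 starts for its RNA. Upstream windows of 250 bases were searched on both strands for the GAS motif bound by STAT factors (TTCNNNGAA) and the NF-kB motif. Also searched were the interferon-response motif (TTTC, 2 bases of any kind, TTTC), the AP-1 motif (TGANTCA) and a C/EBP-like pattern (TTGCNNNAA). That pattern has a wider spacer than the usual C/EBP site, so C/EBP sites as such were not searched. One of the 3 LTF windows held a match, a GAS motif whose first base lies 42 bases before the start at 46463654. It is shown here because STAT3 itself differs between the labels. The match is in capitals, with 10 bases on each side, from chr3:46463678-46463706 on the minus strand (RefSeq, GRCh38.p14), which lies within the gene as the count table bounds it and outside its GENCODE 29 exons.

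LTF: aagccttgccTTCCTGGAAgtggtcatgg

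Of 35116 RefSeq promoter windows of the same length, 6.57% held a GAS motif. That is the share for a single window, whereas LTF had 3 windows and 11 were searched in all, each for several motifs. A match describes letters in this window and is not evidence of binding.

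LCN2, on the plus strand of chromosome 9 from 128149071 to 128153455, encodes lipocalin-2, which captures bacterial siderophores and so keeps iron from microbes. Its level was 248, 234 and 254 CPM in PTPF-labelled libraries, against 138, 156 and 156 CPM in STATF-labelled ones. The groups did not overlap, and the libraries within each differed little. Means were 246 ± 10.4 CPM in PTPF-labelled and 150.1 ± 10.4 CPM in STATF-labelled libraries (SD, n = 3 each), a log2 fold change of 0.71 (SE 0.0592), or 1.64-fold. By log2 fold change 2.63% of genes tested were higher than LCN2. In absolute terms its difference of 95.6 CPM was far larger than the 3.09 CPM of LTF.

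OLFM4, on the plus strand of chromosome 13 from 53028759 to 53052057, encodes olfactomedin-4, a secreted glycoprotein of intestinal crypts and of a subset of neutrophils. Its level was 22.5, 27.3 and 28.9 CPM in PTPF-labelled libraries, against 4.79, 8.42 and 6.59 CPM in STATF-labelled ones. Each PTPF value was above each STATF value, and STATF replicate 1 was the lowest of all. Means were 26.2 ± 3.32 CPM in PTPF-labelled and 6.60 ± 1.81 CPM in STATF-labelled libraries (SD, n = 3 each), a log2 fold change of 1.98 (SE 0.197), or 3.95-fold. The STATF-labelled libraries varied by 27.5% (coefficient of variation), where counting alone would give 6.21%, so they differed among themselves by more than counting error. OLFM4 ranked 14 of 17844 genes tested by its log2 fold change.

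LCN2 and OLFM4 were the genes whose upstream windows held the other matches, and their sequences are shown for that reason. Capitals mark an NF-kB motif, on the reverse strand, and an AP-1 motif in LCN2, and an AP-1 motif in OLFM4. Each sequence is the longest stretch of its window that no GENCODE 29 exon covers, on the plus strand. That of LCN2 is chr9:128149265-128149440 and that of OLFM4 is chr13:53028563-53028758 (RefSeq, GRCh38.p14). The LCN2 stretch lies within the gene as the count table bounds it, and the OLFM4 stretch just before the gene.

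LCN2: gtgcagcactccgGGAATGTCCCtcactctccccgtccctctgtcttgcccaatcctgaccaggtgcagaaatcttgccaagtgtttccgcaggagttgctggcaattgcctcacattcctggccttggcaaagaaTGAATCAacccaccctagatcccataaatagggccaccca

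OLFM4: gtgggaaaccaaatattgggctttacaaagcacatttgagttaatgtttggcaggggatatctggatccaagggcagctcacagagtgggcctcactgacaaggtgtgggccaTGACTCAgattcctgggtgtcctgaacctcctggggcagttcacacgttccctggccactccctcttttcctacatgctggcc

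In LCN2 the first base of the NF-kB match lies 175 bases before the RNA start at 128149453, and that of the AP-1 match 52 bases before it. In OLFM4 the AP-1 match begins 137 bases before the start at 53028813. The NF-kB motif was in 5.21% and the AP-1 motif in 6.57% of all windows of this length. The interferon-response motif was in 3.02% of them and the C/EBP-like pattern in 7.81%. Of the 8 genes 7 had a window in the table, 11 windows in all, and none of these motifs was found in those of S100A8, S100A9, S100P or PIGR.

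SLPI, on the minus strand of chromosome 20 from 45252239 to 45254564, encodes the secretory leukocyte peptidase inhibitor, which protects mucosal surfaces from neutrophil elastase. Its level was 574, 497 and 530.3 CPM in PTPF-labelled libraries, against 401, 379 and 417 CPM in STATF-labelled ones. The groups were apart by a narrow margin, the lowest PTPF value being 1.19 times the highest STATF value. Means were 534 ± 38.3 CPM in PTPF-labelled and 399 ± 18.8 CPM in STATF-labelled libraries (SD, n = 3 each), a log2 fold change of 0.42 (SE 0.0615), or 1.34-fold. SLPI was the most abundant of the 8, by CPM and per kilobase. Per kilobase of gene length its level was 896 ± 64.3 CPM in PTPF-labelled and 669.8 ± 31.5 CPM in STATF-labelled libraries (SD, n = 3 each), and 34 of 17844 genes tested had a higher mean on that scale. SLPI supplied 46.0%, 44.2% and 43.8% of the counts of the 8 genes in PTPF-labelled libraries and 55.9%, 50.02% and 52.6% in STATF-labelled ones.

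S100A8 and S100A9 encode the subunits of calprotectin, a calcium-binding heterodimer that sequesters zinc and manganese. S100A8 stood at 112, 113 and 117 CPM in PTPF-labelled libraries, against 43.0, 54.0 and 60.5 CPM in STATF-labelled ones. S100A9 stood at 281, 247 and 272 CPM in PTPF-labelled libraries, against 126, 155 and 146 CPM in STATF-labelled ones. For both subunits all PTPF-labelled libraries were above all STATF-labelled ones, and STATF replicate 1 was the lowest library.

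The log2 fold change was 1.12 (SE 0.1) for S100A8, 2.17-fold, and 0.91 (SE 0.0688) for S100A9, 1.87-fold. S100A8 varied by 2.23% (coefficient of variation) among PTPF-labelled and by 16.9% among STATF-labelled libraries. Per kilobase of gene length, S100A8 was at 113 ± 2.53 CPM in PTPF-labelled and 52.2 ± 8.80 CPM in STATF-labelled libraries, and S100A9 at 462 ± 30.7 CPM in PTPF-labelled and 246 ± 26.0 CPM in STATF-labelled libraries (SD, n = 3 each). S100A9 was thus the more abundant transcript of the pair, by CPM and per kilobase. Protein levels of the subunits were not measured here. The ratio of S100A8 to S100A9 per length was 0.228, 0.263 and 0.246 in PTPF-labelled libraries and 0.196, 0.200 and 0.237 in STATF-labelled ones. These ratios overlap, so no separate shift of the subunit transcripts was seen beyond the spread of the libraries.

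S100A8 lies on the minus strand of chromosome 1 from 153390032 to 153391188, and S100A9 on the plus strand from 153357854 to 153361027 of GRCh38, in the same S100 gene cluster. Their upstream windows are shown for comparison with those of LCN2 and OLFM4, as they hold none of the motifs searched and so carry no capitals. That of S100A8 is chr1:153391189-153391438 on the minus strand, before the outermost of its 3 RefSeq starts. That of S100A9 is chr1:153357604-153357853 on the plus strand (RefSeq, GRCh38.p14).

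S100A8: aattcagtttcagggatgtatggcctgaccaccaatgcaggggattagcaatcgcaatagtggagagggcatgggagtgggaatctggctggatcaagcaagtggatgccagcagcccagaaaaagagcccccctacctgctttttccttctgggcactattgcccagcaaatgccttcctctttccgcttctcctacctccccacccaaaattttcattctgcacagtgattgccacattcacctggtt

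S100A9: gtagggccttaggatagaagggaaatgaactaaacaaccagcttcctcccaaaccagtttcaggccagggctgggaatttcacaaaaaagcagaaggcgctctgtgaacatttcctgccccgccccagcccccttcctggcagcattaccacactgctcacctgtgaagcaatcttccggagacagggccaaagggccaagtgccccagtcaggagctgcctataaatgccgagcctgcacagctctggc

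That no match was found says only that these letters are not in these windows.

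S100P, on the plus strand of chromosome 4 from 6693069 to 6697170, a calcium-binding protein of placenta and of many carcinomas, was close to the lower limit of what was tested. Its level was 0.94, 0.299 and 0.704 CPM in PTPF-labelled libraries, against 0.719, 1.15 and 0.534 CPM in STATF-labelled ones, from 11 to 48 counts. The groups overlapped, and PTPF replicate 2 was the lowest library. Means were 0.648 ± 0.324 CPM in PTPF-labelled and 0.801 ± 0.317 CPM in STATF-labelled libraries (SD, n = 3 each), with a log2 fold change of -0.33 (SE 0.37). Leaving out 1 library at a time moved it between -0.70 and 0.03, so its direction was not fixed at this depth.

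PIGR, on the minus strand of chromosome 1 from 206928518 to 206946466, is the polymeric immunoglobulin receptor that carries IgA across epithelia and into bile. Its level was 3.15, 2.50 and 2.79 CPM in PTPF-labelled libraries, against 4.37, 4.03 and 4.24 CPM in STATF-labelled ones. All PTPF values lay below all STATF values. Means were 2.81 ± 0.325 CPM in PTPF-labelled and 4.21 ± 0.171 CPM in STATF-labelled libraries (SD, n = 3 each), a log2 fold change of -0.58 (SE 0.149), on 91 to 168 counts per library. LTF had 1.33, 1.22 and 1.44 counts for each PIGR count in PTPF-labelled libraries, against 0.122, 0.22 and 0.132 in STATF-labelled ones.

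Per kilobase of gene length, the order of mean levels in PTPF-labelled libraries was SLPI, S100A9, LCN2, S100A8, OLFM4, LTF, PIGR and S100P. LTF stood at 0.882 ± 0.144 CPM, PIGR at 0.643 ± 0.0743 CPM and S100P at 0.506 ± 0.253 CPM per kilobase there (SD, n = 3 each), and the single libraries of each of these neighbours overlap. In STATF-labelled libraries OLFM4 was at 2.28 ± 0.626 CPM per kilobase, PIGR at 0.963 ± 0.039, S100P at 0.626 ± 0.248 and LTF at 0.155 ± 0.0465 (SD, n = 3 each), with LTF last and no overlap between these neighbours. Together the 8 genes took 0.119%, 0.112% and 0.119% of all counts in PTPF-labelled libraries, against 0.074%, 0.0775% and 0.0804% in STATF-labelled ones. SLPI, S100A9, LCN2 and S100A8 made up 97.0% to 97.5% of these counts in PTPF-labelled and 98.1% to 98.6% in STATF-labelled libraries.

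**Figure D2:**
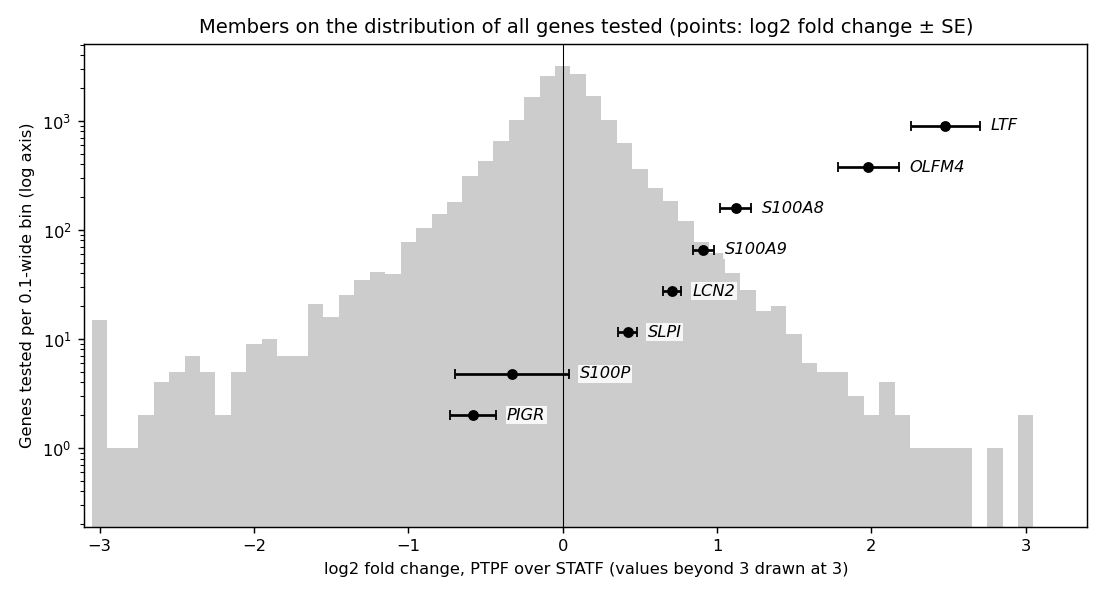
Log2 fold change of PTPF-labelled over STATF-labelled libraries for the 8 genes (points with bars of 1 SE; their height carries no value) over a histogram of all 17844 genes tested, whose vertical axis is logarithmic. LTF, OLFM4 and S100A8 lie above 1, where 0.998% of genes tested lie, and PIGR and S100P lie below 0.

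Within the STATF label, replicate 1 was the lowest library for 5 of the 8 genes and replicate 2 the highest for 4. From the STATF mean on the log2 scale, replicate 1 departed by -0.25 for LTF, -0.42 for OLFM4, -0.27 for S100A8 and -0.17 for S100A9, while it was at 0.01 for SLPI and 0.05 for PIGR. Within the PTPF label, replicate 2 was the lowest library for 6 of the 8 genes. It departed by -0.86 for S100P, -0.28 for LTF, -0.11 for S100A9 and -0.16 for PIGR, but by 0.07 for OLFM4. These departures are small beside the difference between labels for LTF, OLFM4, S100A8 and S100A9. For S100P the departure is larger in size than the log2 fold change of -0.33 between labels.

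The genes whose profile over the 6 libraries was most like that of a member were found among 11714 protein-coding genes, as the root mean square difference of centred log2 CPM. For LTF these were the stress keratin KRT6A (0.213), the pentraxin CRP (0.288) and STAT3 itself (0.334). For OLFM4 they were the interleukin-33 receptor IL1RL1 (0.169), STON1 (0.202) and KRT6A (0.208). For LCN2 they were the endoplasmic reticulum chaperone DNAJB9 (0.0458), the secreted protein C1QTNF1 (0.0475) and SMARCD3 (0.0503). For PIGR they were the scaffold protein PDZK1 (0.0195), the glucuronosyltransferase UGT2B4 (0.0314) and the epoxide hydrolase EPHX1 (0.039). The measure is set mostly by the difference between labels, and it comes with no test. STON1 shares 29.1% of its exon bases with a readthrough gene, and KRT6A and UGT2B4 have close relatives whose reads can be confused with theirs.

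Relatives and partners of the 8 genes were then counted with edgeR's quasi-likelihood test over all genes, at an adjusted p of 0.05, which called 21.6% of genes tested, 10.1% as higher and 11.6% as lower in PTPF-labelled libraries. With library totals as the only scaling 28.1% of the calls were higher, against 46.6% with TMM. Among S100 genes and the S100P-binding protein, 4 of 10 tested fell in PTPF-labelled libraries and the other 6 did not pass, with a median log2 fold change of -0.34. S100A1 and S100A13, neither past the test, overlap on opposite strands, so reads from the shared bases cannot be told apart. Of their exon bases, 18.3% in S100A1 and 33.5% in S100A13 are shared with other genes. S100A10, the annexin A2 partner, averaged 104 ± 7.82 CPM in PTPF-labelled and 143 ± 3.58 CPM in STATF-labelled libraries (SD, n = 3 each; log2 fold change -0.46, edgeR adjusted p = 8.96e-07). S100A16 had a log2 fold change of -0.46 (edgeR adjusted p = 7.08e-07) and S100A2 of -0.99 (edgeR adjusted p = 6.6e-06). S100A4 (-0.64, edgeR adjusted p = 0.0336) lost its call without any one of 5 of the libraries and with DESeq2. S100A11, at 111 CPM per kilobase in PTPF-labelled and 119 CPM per kilobase in STATF-labelled libraries, was not past the test. S100A12, the third S100 gene typical of neutrophils, had 24 counts in the 6 libraries together.

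**Figure D3:**
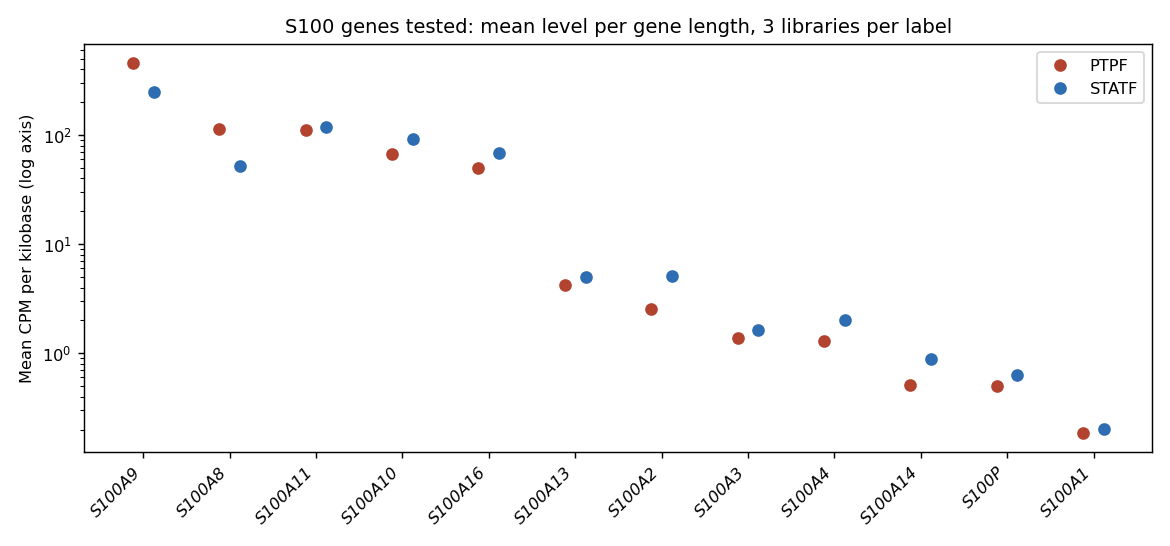
Mean CPM per kilobase of gene length of the S100 genes tested, on a log axis, in PTPF-labelled (left point of each pair) and STATF-labelled libraries (right point), n = 3 each. S100A9 and S100A8 have the higher PTPF point, and the other S100 genes shown have the higher STATF point, past the test in S100A2, S100A4, S100A10 and S100A16.

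Of the transferrin family and its receptors, TF, the plasma iron carrier related to LTF, fell to 2231 ± 189 CPM in PTPF-labelled libraries, against 2912 ± 62.7 CPM in STATF-labelled ones (SD, n = 3 each; edgeR adjusted p = 8.44e-05). The other 3, TFRC among them (-0.04), were not past the test. Among lipocalins 2 of 7 tested rose and 5 did not pass, with a median of 0.10. The 2 were the acute-phase proteins ORM1 (log2 fold change 0.60) and ORM2 (0.57), which are near-identical, so that their reads can be confused. All 3 olfactomedin-domain relatives of OLFM4 that were tested fell, OLFM2 by 0.43, OLFML3 by 0.61 and OLFML2A by 0.90 on the log2 scale. OLFML2A, at 15 to 39 counts per library, kept no call when any 1 library was left out.

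Among protease inhibitors of epithelia, 3 of 10 tested rose and 1 fell, with a median log2 fold change of 0.11. SPINK1, a trypsin inhibitor, averaged 54.7 ± 1.98 CPM in PTPF-labelled and 21.1 ± 1.85 CPM in STATF-labelled libraries (SD, n = 3 each; log2 fold change 1.37, edgeR adjusted p = 1.27e-14). WFDC12, a relative of SLPI, had 15 to 19 counts in PTPF-labelled and 1 to 8 counts in STATF-labelled libraries (log2 fold change 1.78, edgeR adjusted p = 0.0109), was not called without STATF replicate 1, and got no adjusted p from DESeq2. The cysteine protease inhibitor CSTA rose by 0.38 and TFPI2 fell by 0.46 on the log2 scale. PI3, the elafin precursor and closest in role to SLPI, averaged 15.9 CPM in PTPF-labelled and 16.1 CPM in STATF-labelled libraries and was not past the test.

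Antimicrobial proteins had 7 of 16 tested higher and 2 lower in PTPF-labelled libraries, with a median of 0.17 and 7 not past the test. Among the 7 higher, BPI had only 18 to 30 counts in PTPF-labelled and 6 to 17 counts in STATF-labelled libraries. ANG, also among them, shares 61.4% of its exon bases with other genes. REG1A, a secreted lectin of the gut and pancreas, averaged 4.76 ± 0.296 CPM in PTPF-labelled and 1.52 ± 0.173 CPM in STATF-labelled libraries (SD, n = 3 each; log2 fold change 1.64, edgeR adjusted p = 1.39e-08). PLA2G2A, a phospholipase that kills Gram-positive bacteria, was at 1005 ± 139 CPM in PTPF-labelled and 394 ± 26.5 CPM in STATF-labelled libraries (SD, n = 3 each; 1.35, edgeR adjusted p = 1.36e-09). CHI3L1, a chitinase-like glycoprotein, was at 3193 ± 126 CPM in PTPF-labelled and 1486 ± 138 CPM in STATF-labelled libraries (SD, n = 3 each; 1.10, edgeR adjusted p = 1.96e-12). The lipopolysaccharide-binding protein LBP had a log2 fold change of 1.13. The peptidoglycan recognition protein genes PGLYRP2 (-0.89) and PGLYRP4 (-1.63), named after their values were seen, were the members that fell. PGLYRP4 was close to the lower limit of what was tested (edgeR adjusted p = 0.00998). It had 3 to 8 counts in PTPF-labelled and 18 to 25 counts in STATF-labelled libraries. CAMP, LYZ and HAMP had 13, 31 and 43 counts in the 6 libraries together and were not tested. LYZ shares 34.0% of its exon bases with an antisense gene.

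Mucins and related secretory genes had 1 of 11 tested higher and 2 lower, with a median of 0.00, and 15 of the 26 listed were too low to test. MUC1 (-0.50, edgeR adjusted p = 0.0118) and CEACAM1 (-0.20, edgeR adjusted p = 0.0117) fell and MUC13 (0.51, edgeR adjusted p = 0.0398) rose. Without STATF replicate 2 none of the list passed in edgeR, and MUC13 was lost without any one of 5 of the libraries and with DESeq2, limma-voom, library totals or no filter. Of the genes of immunoglobulin transport, FCGRT, the neonatal Fc receptor, was the one tested, at 55.2 ± 8.77 CPM in PTPF-labelled and 61.6 ± 1.71 CPM in STATF-labelled libraries (SD, n = 3 each; edgeR adjusted p = 0.24). It passed under each of 3 separate settings, when PTPF replicate 1 was left out, when library totals were the scaling, and when a replicate block was used. JCHAIN, which joins the IgA that PIGR carries, had 4 counts in all.

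Receptors and partners of the 8 proteins had 2 of 14 tested higher and 3 lower, with a median of -0.14. CD14, the lipopolysaccharide co-receptor through which calprotectin can signal with TLR4, averaged 14.2 ± 1.62 CPM in PTPF-labelled and 8.13 ± 0.604 CPM in STATF-labelled libraries (SD, n = 3 each; log2 fold change 0.80, edgeR adjusted p = 4.92e-07). NCL rose by 0.24, while IQGAP1 fell by 0.37 and EZR, a partner of S100P, fell by 0.26 on the log2 scale. The calprotectin receptors TLR4 (-0.12) and AGER (-0.25) and the lipocalin-2 receptors LRP2 (-0.05) and SLC22A17 (0.05), named after their values were seen, were not past the test.

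Inducers and regulators of mucosal defence genes had 12 of 31 tested higher and 7 lower, with a median of 0.09. STAT3, a target of the siRNAs, is one of the 12. CEBPD, an acute-phase transcription factor, was at 237 ± 9.68 CPM in PTPF-labelled and 133 ± 7.06 CPM in STATF-labelled libraries (SD, n = 3 each; log2 fold change 0.84, edgeR adjusted p = 9.3e-12). BCL3, a nuclear NF-kB cofactor, was at 67.5 ± 1.34 CPM in PTPF-labelled and 41.3 ± 3.16 CPM in STATF-labelled libraries (SD, n = 3 each; 0.71, edgeR adjusted p = 1.01e-09). Changes were smaller in NFKBIZ (0.24), the cofactor that LCN2 induction needs, in CEBPB (0.22) and in the interleukin-6 signal transducer IL6ST (0.21), and IL22RA1, the interleukin-22 receptor subunit, fell by 0.50 on the log2 scale. These 4 genes were named after their values were seen. TNF and CEBPE had 0 counts in all 6 libraries, which allows up to 0.0735 to 0.0903 CPM per library.

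**Figure D4:**
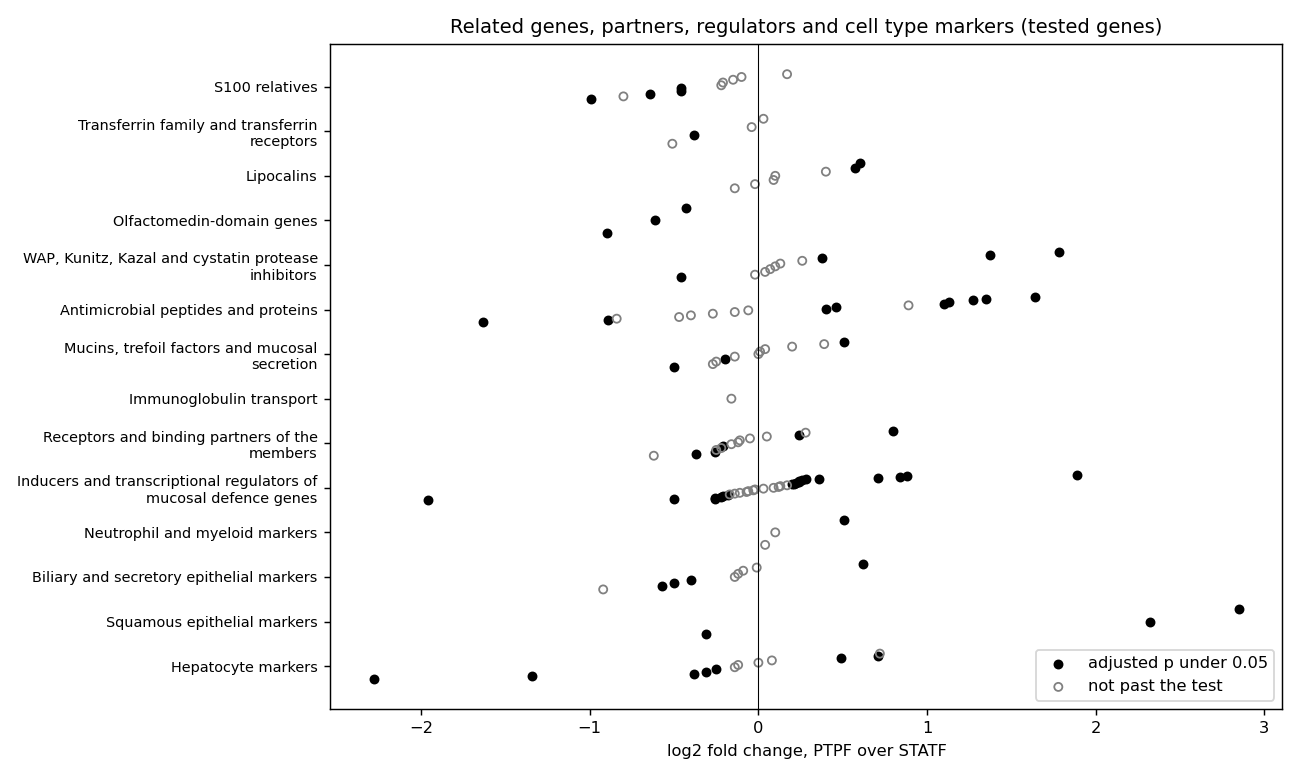
Log2 fold change of PTPF-labelled over STATF-labelled libraries for each tested gene of the 14 lists (filled, past the adjusted p of 0.05 in edgeR; open, not past it; height within a row carries no value). The 3 olfactomedin-domain relatives lie below 0, and the antimicrobial proteins past 1 are REG1A, PLA2G2A, BPI (on 6 to 30 counts per library), LBP and CHI3L1.

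LTF, LCN2, OLFM4, S100A8 and S100A9 are also neutrophil genes, so markers of other cell types were read beside them. Of 19 neutrophil and myeloid markers 3 were tested, ITGAM (0.10), ITGB2 (0.04) and FPR1 (0.51, edgeR adjusted p = 0.00635). MPO and MS4A3 had 0 counts in every library and the leukocyte antigen PTPRC had 1 count in all. CSF3R, FCGR3B and CEACAM8 had 8, 5 and 5 counts in all. Others of the list were detected at levels too low to test, with 59 counts over the 6 libraries for ELANE, 55 for CXCR2, 33 for AZU1, 31 for CSF1R, 29 for CD68 and 17 for CTSG. The summed level of the list was 18.1 to 20.9 CPM in PTPF-labelled and 17.1 to 18.2 CPM in STATF-labelled libraries, and these ranges overlap.

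Of 13 squamous markers 3 were tested, with KRT6A (2.32) and KRT16 (2.85) higher and KRT5 (-0.31) lower. KRT5 was not called with DESeq2 or limma-voom, or without any one of 4 of the libraries. The list summed to 30.0 to 33.7 CPM in PTPF-labelled and 13.7 to 16.3 CPM in STATF-labelled libraries, while SPRR1A and SPRR1B had 0 counts. The part of these markers in the levels of the 8 genes was not tested. Biliary markers had 1 of 9 tested higher, CD24 (0.62), and 3 lower, KRT19 (-0.57), SOX9 (-0.40) and MUC1. They summed to 646 to 684 CPM in PTPF-labelled and 648 to 676 CPM in STATF-labelled libraries, with EPCAM at 0 counts. Hepatocyte markers had 2 of 12 higher, SERPINA1 (0.71) and ASGR1 (0.49), and 5 lower, among them G6PC (-2.28), with a median of -0.13. Their sum went the other way, at 42228.2 to 49026.5 CPM in PTPF-labelled and 40059.9 to 40957.6 CPM in STATF-labelled libraries. SERPINA1 is a large part of it, at 23719.1 ± 2074.1 CPM in PTPF-labelled and 14450.2 ± 500.1 CPM in STATF-labelled libraries (SD, n = 3 each).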

How the data were processed

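The deposited table holds raw counts, not normalized by the authors, for each Ensembl gene and library. The submitters' processing notes name GRCh38 as the build and list featureCounts 1.5.0-p3, HISAT2 2.0.5 and CASAVA 1.8. No annotation release, strand setting or treatment of multi-mapping reads is given in the sources used here. Reads from bases shared by antisense or near-identical genes therefore cannot be told apart. Gene lengths in bases, an other unit in the deposited table, served for CPM per kilobase. The exons of the 8 genes in GENCODE 29 overlap no other gene.

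Samples were grouped by title into PTPF and STATF, 3 libraries each. Replicates in the labels are not said to be separate cultures, and p-values then reflect only how these libraries vary, which may be technical. Within groups, libraries differed by more than sampling noise (4.32 to 12 chi-square units per degree of freedom), so each counted as 1 replicate. Low counts were removed with filterByExpr and libraries scaled by TMM, with factors of 0.953 to 1.03. The test was the quasi-likelihood test of edgeR 4.0.16 in R 4.3.3, with Benjamini-Hochberg adjustment over all 17844 genes at 0.05. Positive log2 fold changes mean higher in PTPF-labelled libraries. SEs of log2 fold changes come from that fit. The code was tested on simulated data with 200 of 17844 genes changed, fewer than the 3863 called in the real data. There 9.95% of calls were false, above the nominal threshold of 0.05. Alternatives were RLE or library-total scaling, a filter of 50 counts in at least 3 libraries or none, limma-voom (limma 3.58.1), DESeq2 1.42.0, a replicate block, leaving out each library and, for the 8 genes, a prior count of 2. Counting error alone is covered by the limit of 3 counts for a count of 0, as PCR reads that carry no molecular identifier are not independent molecules.

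The members and the 14 lists were chosen with earlier results of these data known. Of each list the text names up to 4 genes past the test with the smallest adjusted p, or the 2 highest per length where none passed, and any other list gene in the text was named after its values were seen. A gene that this rule takes is not reported here. For LTF, OLFM4, LCN2 and PIGR, the 3 most similar profiles were named among protein-coding genes with a mean log2 CPM (prior count 2) of at least 1.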

Additional observations from a re-analysis of the deposited data

How the results depend on the processing

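The 3863 genes called by edgeR were 3516 with DESeq2, 3748 with limma-voom, 3673 without a filter and 2830 to 3808 when 1 library was left out. Across the other settings LTF stayed between 2.40 and 2.49 on the log2 scale, OLFM4 between 1.92 and 2.01, S100A8 between 1.05 and 1.13, S100A9 between 0.84 and 0.91, LCN2 between 0.65 and 0.71, SLPI between 0.35 and 0.42, and PIGR between -0.65 and -0.58. Leaving out 1 library gave 2.35 to 2.77 for LTF, 1.80 to 2.20 for OLFM4, 0.99 to 1.23 for S100A8 and -0.67 to -0.50 for PIGR. Mucins and secretory genes had 0 calls without STATF replicate 2, against 3 with all libraries, and the range over left-out libraries was 0 to 4. The deviations of same-numbered libraries had correlations of 0.0347, 0.0578 and 0.000769, against -0.0699 to 0.0332 for differently numbered ones. With 3 libraries per label this cannot settle whether same-numbered libraries share a culture or batch, and the labels do not say. A replicate block called 4145 genes and made FCGRT the 1 call of the immunoglobulin transport list, as did library totals (1) and leaving out PTPF replicate 1 (range 0 to 1). The cause was not tested. Of 39 named list genes, 7 lost their call under at least 1 setting and none reversed. Depth limits S100P, at 11 to 48 counts per library, most among the 8 genes, and WFDC12, at 1 to 19 counts, among the named list genes.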
